A study of Caenorhabditis elegans with 6 samples.

Results

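The myosin and thin filament genes described here are 10 of the 20351 genes counted in first-stage (L1) larvae of *Caenorhabditis elegans*. They were listed by gene identity, as a set expressed outside the intestine, with no threshold on a measured value. They are the body wall myosin heavy chains *unc-54* and *myo-3*, the pharyngeal myosin heavy chains *myo-1* and *myo-2*, paramyosin *unc-15*, the myosin light chains *mlc-1*, *mlc-2* and *mlc-3*, tropomyosin *lev-11* and troponin I *unc-27*. All 10 were found and all 10 passed the filter on low counts, which kept 10063 genes. The tested libraries came from wild-type (N2) larvae whose mothers were fed bacteria carrying *elt-2* double-stranded RNA, and the control libraries from larvae whose mothers were fed bacteria with the empty vector. Feeding began on Day 1 of adulthood and lasted 24 hours, with about 10000 animals fed. The embryos released by bleaching hatched overnight without food, so all larvae were unfed L1 animals. Each group had 3 biological replicates, lettered A, B and C. RNA came from whole larvae, so fewer muscle cells and less RNA per muscle cell cannot be told apart.

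In the striated body wall muscle of the worm, myosin heavy chains are assembled on a core of paramyosin to form thick filaments, and each heavy chain binds a regulatory and an essential light chain. The thin filaments are actin, along which tropomyosin and the troponin complex lie, and calcium binding to troponin permits contraction. The pharynx, the pumping organ of feeding, has muscle of its own with its own heavy chains. *elt-2* encodes a GATA transcription factor of the intestine, so these genes describe a tissue other than the one in which ELT-2 acts.

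Total counts per library were 14378960 to 22124319 in the *elt-2* RNAi group and 13700707 to 19945971 in the control group, and the 100 highest genes took 79.5% to 84.7% of each. Libraries were scaled by TMM (trimmed mean of M values), and levels are given as CPM, counts per 1000000 of the scaled library size. The TMM factors were 1.39, 1.14 and 0.964 in *elt-2* RNAi libraries A, B and C, against 1.20, 0.616 and 0.885 in control libraries A, B and C, and control B therefore had its values raised most. The *elt-2* transcript itself had 21, 34 and 44 counts in *elt-2* RNAi libraries and 32, 40 and 21 counts in control libraries, and its log2 fold change of -0.48 (SE 0.46) did not pass the test (adjusted p = 0.660). Groups are therefore named by their labels, and the knockdown is not shown by this transcript at these low counts. The study itself reported less *elt-2* RNA by qRT-PCR in L1 progeny of mothers fed *elt-2* RNAi, and arrest of larvae.

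No member of the set passed the test at a false discovery rate of 10% in either direction (edgeR quasi-likelihood test, Benjamini-Hochberg adjustment over 10063 genes). Across all genes 2.61% were called lower and 0.199% were called higher. All 10 members had negative log2 fold changes, *elt-2* RNAi over control, from -1.36 for *unc-27* to -0.40 for *lev-11*, with a median of -0.82. The median over all genes was 0.06, 46.3% of all genes were negative, and 16.0% of genes lay below the members' median. The *elt-2* RNAi and control libraries overlapped for all 10 members, whereas 10.9% of all genes had every *elt-2* RNAi library below every control library. At an unadjusted p under 0.05, edgeR gave 0 members and 14.5% of all genes. The DESeq2 Wald test, run on 17388 genes with no filter beyond 1 count, gave 2 members and 9.80% of those genes, and no call. That larger set holds genes of lower counts, so its share is not like for like with the 14.5%. The most in any setting was 3 members, with edgeR without *elt-2* RNAi C, beside 17.8% of all genes.

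**Figure D1:**
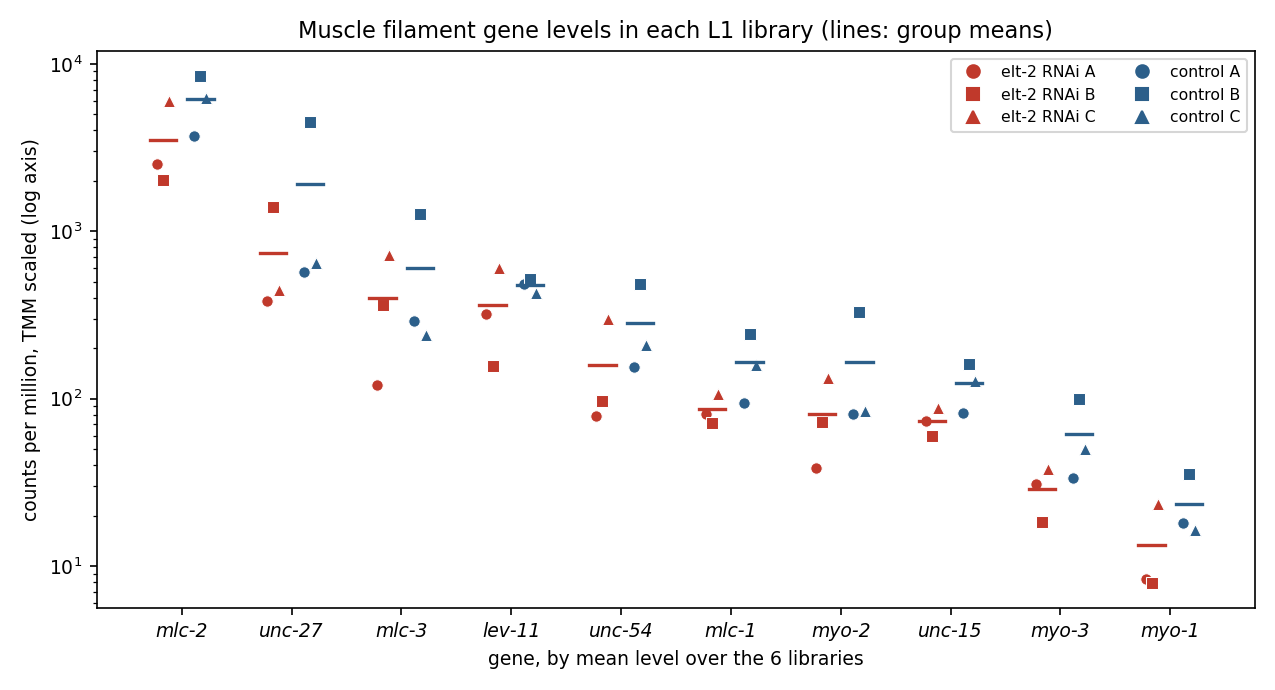
Level of each of the 10 genes in every library (vertical axis, CPM on the TMM-scaled library size, log scale), with *elt-2* RNAi libraries to the left of control libraries, a marker for each letter and a bar at the group mean. The libraries of both groups overlap for every gene, and control B is the highest of the 6 libraries for 9 of the 10.

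*unc-54* (F11C3.3; chromosome I, 14855901 to 14863482, minus strand, 9 exons) encodes the major myosin heavy chain of body wall muscle. It had 78.8, 96.9 and 300.0 CPM in *elt-2* RNAi libraries A, B and C, against 155, 482 and 208 CPM in control libraries A, B and C. *elt-2* RNAi C was above control A and control C, so the groups overlapped. The means were 159 ± 123 CPM under *elt-2* RNAi and 282 ± 176 CPM in controls (SD, n = 3 each), a log2 fold change of -0.83 (SE 0.65, adjusted p = 0.590).

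*myo-3* (K12F2.1; chromosome V, 12226817 to 12234343, minus strand, 7 exons) encodes the other body wall heavy chain, which lies at the middle of the thick filament. It had 30.9, 18.3 and 37.8 CPM in *elt-2* RNAi libraries A, B and C, against 33.7, 99.7 and 49.7 CPM in control libraries A, B and C. Only *elt-2* RNAi C exceeded a control library, control A. The log2 fold change of -1.07 (SE 0.52) had the lowest adjusted p of the set, 0.385.

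The pharynx has its own pair of heavy chains. *myo-2* (T18D3.4; chromosome X, 12468061 to 12475348, plus strand, 12 exons) had 38.4, 72.1 and 132 CPM in *elt-2* RNAi libraries, against 80.6, 330.0 and 84.3 CPM in control libraries. *elt-2* RNAi C was above control A and control C, and the log2 fold change was -1.03 (SE 0.67, adjusted p = 0.517). *myo-1* (R06C7.10; chromosome I, 7258946 to 7267057, minus strand, 9 exons) was the lowest member in all 6 libraries. It had 8.37, 7.96 and 23.5 CPM under *elt-2* RNAi, against 18.1, 35.6 and 16.3 CPM in controls. Here too *elt-2* RNAi C lay above 2 of the control libraries, and the log2 fold change was -0.81 (SE 0.54, adjusted p = 0.521).

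*unc-15* (F07A5.7; chromosome I, 7376604 to 7383197, minus strand) encodes paramyosin, the rod protein of the thick filament core. The counts name a single transcript of *unc-15*, while the annotation holds 3 transcripts with 2 different 3' ends, so they may not cover every isoform. The gene is followed here by its counted row. It had 73.4, 59.6 and 88.2 CPM in *elt-2* RNAi libraries, against 82.2, 162 and 128 CPM in control libraries. The overlap came from *elt-2* RNAi C and control A alone. On the TMM scale paramyosin had the smallest relative spread of the set under *elt-2* RNAi, with a coefficient of variation of 19.4% there and 32.2% in controls. Its log2 fold change was -0.75 (SE 0.45, adjusted p = 0.477).

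*mlc-1* and *mlc-2* encode the regulatory light chains of muscle myosin and are neighbours on the X chromosome with 2623 bp between them. *mlc-2* (C36E6.5; 17455792 to 17456586, minus strand, 4 exons) was the highest member in all 6 libraries, with 2521, 2013 and 5986 CPM under *elt-2* RNAi, against 3707, 8449 and 6230 CPM in controls. Its counts ranged from 44775 to 127628, so counting error was small beside the difference between replicates, and its log2 fold change was -0.81 (SE 0.59, adjusted p = 0.565). *mlc-1* (C36E6.3; 17459210 to 17460778, plus strand, 5 exons) had 80.4, 71.3 and 107 CPM under *elt-2* RNAi, against 94.0, 242 and 159 CPM in controls.

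Only *elt-2* RNAi C and control A overlapped for *mlc-1*, and its log2 fold change was -0.94 (SE 0.49, adjusted p = 0.421). Scaled by library size alone, *mlc-1* was the 1 member whose *elt-2* RNAi libraries all lay below its control libraries, beside 6.25% of all genes. The genes encode nearly identical proteins, and the study's methods refer to uniquely mapped reads, so reads matching both may be missing from either count and the relative levels of the pair are uncertain.

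*mlc-3* (F09F7.2; chromosome III, 5565025 to 5567382, plus strand) encodes the essential light chain. Its counts name a single transcript, while the annotation holds 3 transcripts with 3 different 3' ends, so they may not cover every isoform. It had 121, 361 and 720 CPM in *elt-2* RNAi libraries A, B and C, against 290.2, 1266 and 241 CPM in control libraries A, B and C. *elt-2* RNAi B and C exceeded control A and C. The highest *elt-2* RNAi library was 5.97 times the lowest, and the highest control library 5.26 times the lowest. The log2 fold change of -0.58 (SE 0.78, adjusted p = 0.762) was smaller than its standard error, and without control B it was 0.59.

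*lev-11* (Y105E8B.1; chromosome I, 14621169 to 14631094, minus strand) encodes tropomyosin. Its row in the count table names 1 transcript, while the annotation holds 20 transcripts with 8 different 3' ends, so the counts may not cover every isoform. It had 321, 156 and 603 CPM under *elt-2* RNAi, against 484, 521 and 425 CPM in controls. The control libraries differed little, with a coefficient of variation of 10.1%, while the *elt-2* RNAi libraries lay on both sides of them at 62.8%. With TMM, *lev-11* was the only member whose highest library was an *elt-2* RNAi library, and its log2 fold change was -0.40 (SE 0.55, adjusted p = 0.763).

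*unc-27* (ZK721.2; chromosome X, 8789456 to 8790621, plus strand, 5 exons) encodes troponin I, the inhibitory subunit of troponin. It had 383, 1399 and 447 CPM in *elt-2* RNAi libraries A, B and C, against 566, 4496 and 647 CPM in control libraries A, B and C. The B library of each group stood well above its A and C libraries, being 3.37 times their mean under *elt-2* RNAi and 7.41 times in controls. The log2 fold change of -1.36 (SE 0.86, adjusted p = 0.50) was the most negative of the set, and it was 0.28 without control B. In a fit with the letter as a term, added after the values were seen, *unc-27* was the 1 member called for the letter (adjusted p = 0.0636), beside 2.84% of all genes.

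**Figure D2:**
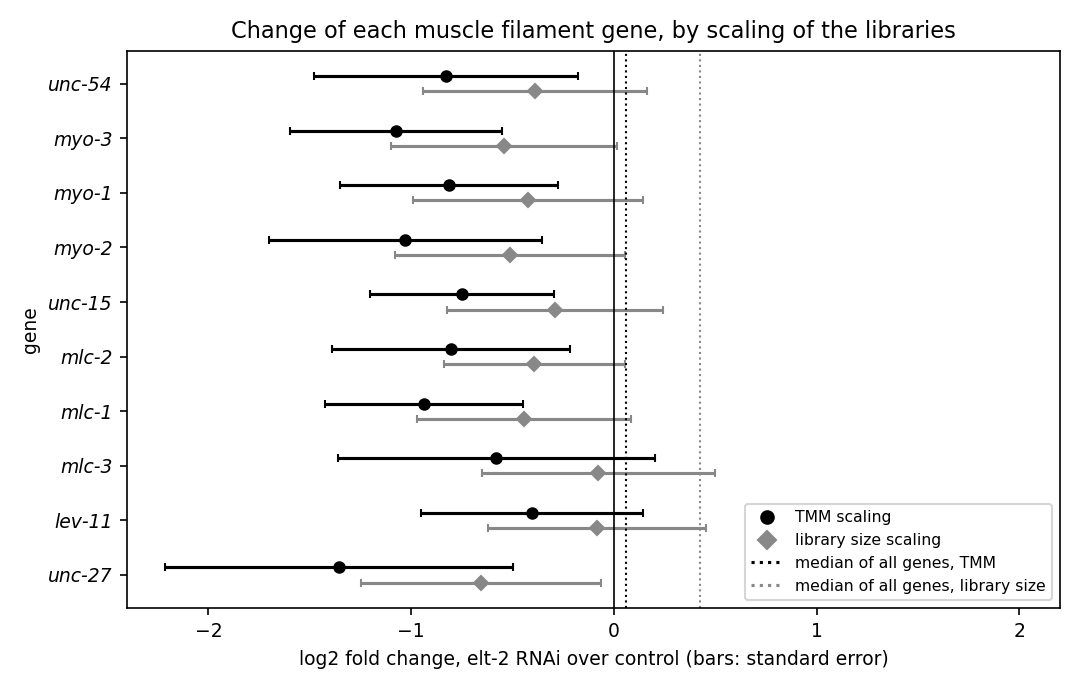
Log2 fold change, *elt-2* RNAi over control, of each of the 10 genes (horizontal axis) with its standard error from edgeR (bars), under TMM scaling (black circles) and library size scaling (grey diamonds), and the median of all genes under each (dotted lines). All 10 values are negative under both scalings, and the medians of all genes are 0.06 with TMM and 0.42 with library size.

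The same libraries were high or low for most members. *elt-2* RNAi C was the highest *elt-2* RNAi library for 9 members, and control B was the highest control library for 10 and the highest of the 6 for 9. *elt-2* RNAi B was the lowest of the 6 libraries for 6 members and *elt-2* RNAi A for 4. Scaled by library size, control B was the highest library for 6 members and *elt-2* RNAi C for 3.

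Leaving out single libraries moved the median of the 10 log2 fold changes from -0.82 to -0.35 without control B, where 8 members were negative, and to -1.30 without *elt-2* RNAi C, where all 10 were negative. No member was called in either case. Scaling by library size gave a median of -0.41 for the members, with all 10 negative, beside 0.42 over all genes. Relative to the median of all genes the members were thus 0.88 lower with TMM and 0.83 lower with library size, on the log2 scale. Scaling moves all genes by nearly the same amount, so these differences could hardly depart from each other. Without control B the difference from the median of all genes was -0.42, and 27.1% of genes lay below the members' median.

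On the TMM scale, spread between replicates was wide for most of these genes. The median coefficient of variation of the 10 was 62.2% under *elt-2* RNAi and 51.0% in controls, beside 34.6% and 34.9% over the 2542 genes of at least 10 CPM. Above the median of those genes lay 7 members under *elt-2* RNAi and 8 in controls. The range ran from 19.4% for *unc-15* to 77.4% for *unc-54* under *elt-2* RNAi, and from 10.1% for *lev-11* to 118% for *unc-27* in controls. Scaled by library size, the control libraries lay closer together for every member but *lev-11*. The highest control library was then 1.62 times the lowest for *unc-54* and 1.24 times for *mlc-2*, against 3.12 and 2.28 with TMM. For *lev-11* it was 1.81 times, against 1.22 with TMM. Coefficients of variation with library size were not compared with those of all genes. Between the 45 pairs of members, Pearson's r of log2 CPM over the 6 libraries was positive in 44, with a median of 0.80. It was 0.99 between *unc-15* and *mlc-1* and -0.09 between *lev-11* and *unc-27*. These points share their libraries and scaling, and the values are a description.

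The assay reads the 3' ends of transcripts, so levels can be set side by side between genes without a correction for length. On the CPM scale *mlc-2* ranked above the other members in all 6 libraries, *myo-1* ranked below the others in all 6 and *myo-3* next above it in all 6. *unc-27* was second in 5 libraries. *mlc-3* and *lev-11* changed places between libraries, as did *unc-54* and *mlc-1*, *mlc-1* and *myo-2*, and *myo-2* and *unc-15*. Among all genes tested, the members' mean level lay between the 84.4th percentile for *myo-1* and the 99.5th for *mlc-2*.

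Together the 10 genes took 0.508%, 0.484% and 0.814% of all counts in *elt-2* RNAi libraries A, B and C, against 0.661%, 0.991% and 0.724% in control libraries A, B and C. The means were 0.602 ± 0.184% under *elt-2* RNAi and 0.792 ± 0.175% in controls (SD, n = 3 each), a difference of -0.19 percentage points (two-sided exact permutation test, p = 0.3, where the smallest p possible is 0.1). *mlc-2* alone supplied 63.8% of the members' counts on average. Without it the other 9 took 0.158%, 0.255% and 0.237% in *elt-2* RNAi libraries, against 0.216%, 0.470% and 0.173% in control libraries (exact permutation test, p = 0.8). A further share left the 100 highest genes out of the total, except *mlc-2*, which ranked 50 and was kept. The 10 genes then took 2.65%, 2.24% and 4.15% under *elt-2* RNAi, against 3.48%, 5.60% and 4.40% in controls (exact permutation test, p = 0.2).

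Ratios between members within a library do not depend on the scaling, and 7 were compared. Pharyngeal over body wall heavy chains, (*myo-1* + *myo-2*)/(*unc-54* + *myo-3*), were 0.427, 0.695 and 0.460 in *elt-2* RNAi libraries, against 0.525, 0.628 and 0.391 in control libraries. The mean log2 ratios were -0.96 ± 0.38 under *elt-2* RNAi and -0.99 ± 0.35 in controls, differing by 0.03 (SD, n = 3 each; exact permutation test, p = 1, adjusted p = 1). The balance of both muscle types thus differed between the groups by less than the spread between replicates.

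The ratio of *myo-3* to *unc-54* was 0.392, 0.189 and 0.126 under *elt-2* RNAi, against 0.218, 0.207 and 0.239 in controls. The control ratios were close together, with an SD of 0.10 on the log2 scale, and the *elt-2* RNAi ratios spread to both sides of them with an SD of 0.83. *mlc-1* over *mlc-2* had the same shape, with log2 SDs of 0.53 under *elt-2* RNAi and 0.10 in controls. Paramyosin over body wall heavy chains was 0.670, 0.517 and 0.261 under *elt-2* RNAi, against 0.436, 0.278 and 0.496 in controls.

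Troponin I over tropomyosin, *unc-27*/*lev-11*, was 1.19, 8.98 and 0.741 in *elt-2* RNAi libraries A, B and C, against 1.17, 8.64 and 1.52 in control libraries A, B and C. The B libraries of both groups stood apart from the A and C libraries. *myo-1*/*myo-2* was also lowest in the B libraries, at 0.110 under *elt-2* RNAi and 0.108 in controls. Regulatory over essential light chains, (*mlc-1* + *mlc-2*)/*mlc-3*, were 21.5, 5.78 and 8.46 under *elt-2* RNAi, against 13.1, 6.86 and 26.6 in controls. None of the 7 ratios passed the test (exact permutation test, p from 0.6 to 1, all adjusted p = 1).

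**Figure D3:**
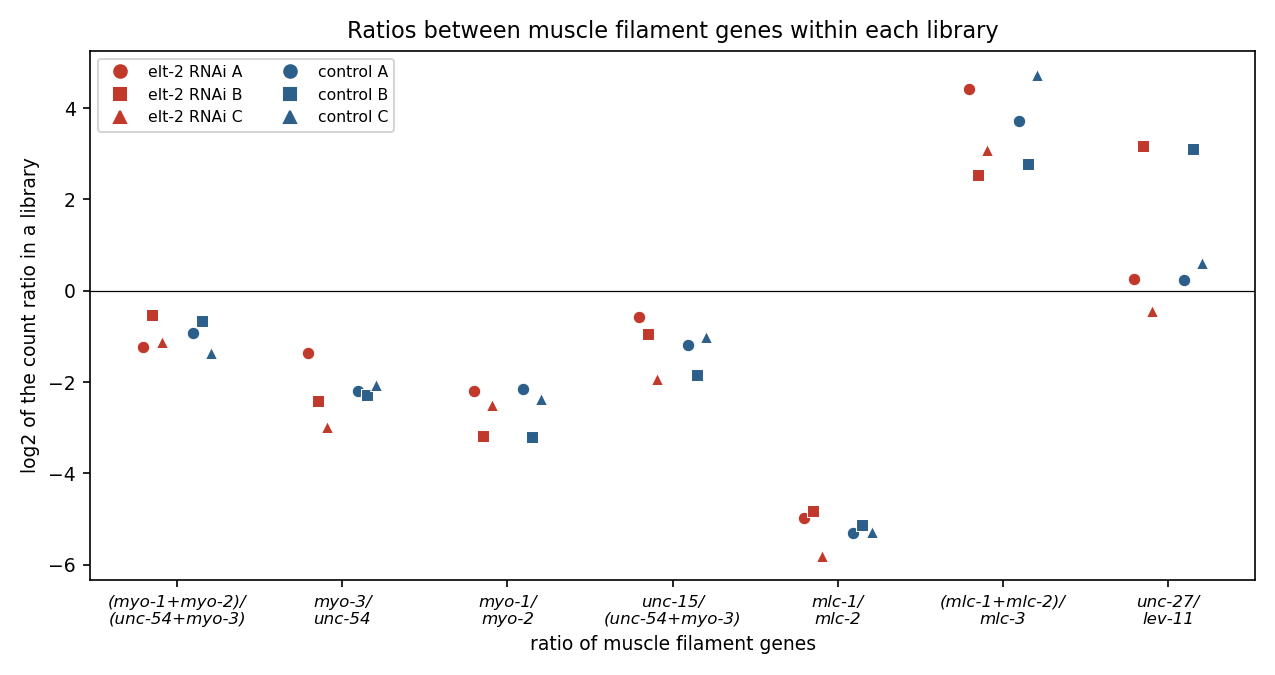
Log2 ratio of counts between members within each library (vertical axis), with *elt-2* RNAi libraries to the left of control libraries and a marker for each letter. The groups overlap for all 7 ratios, and the B libraries of both groups are the highest for *unc-27*/*lev-11*, at 8.98 and 8.64 on the linear scale.

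The rest of the contractile machinery was read from other lists of genes. Of 21 other filament and sarcomere genes tested, which include actins, the other troponins and the giant proteins of the sarcomere, 0 were called and 17 were negative, with a median log2 fold change of -0.45. The median was -0.02 with library size scaling, beside 0.42 over all genes, and 0.01 without control B, beside 0.07 over all genes. At an unadjusted p under 0.05, 5 of these genes were lower and 0 were higher (edgeR), beside 14.5% of all genes in either direction. The twitchin gene *unc-22* came closest to a call (log2 fold change -1.73, adjusted p = 0.107), and it was called without control A (adjusted p = 0.0519) and with the DESeq2 Wald test (adjusted p = 0.0193), which also called *tni-3*. With no filter beyond 1 count, edgeR called *unc-22* (adjusted p = 0.0218) and *unc-89* (adjusted p = 0.0114). *elt-2* RNAi and control libraries did not overlap, on the lower side, for 6 of the 21, or 28.6% beside the 10.9% of all genes. The same held for 6 of 12 neuronal genes, 3 of 10 intestine genes and 3 of 11 excitation and calcium genes, so it was not seen in filament genes alone. *tni-3*, a troponin I gene, was one of these, with 5436, 4673 and 7249 counts under *elt-2* RNAi against 7020, 12403 and 11073 counts in controls (log2 fold change -1.39, adjusted p = 0.242). *tni-1*, the troponin I gene with the highest level of this list, had a log2 fold change of -0.21 (SE 0.97).

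Dense bodies anchor the thin filaments to the muscle cell membrane. Of 15 dense body and attachment genes 0 were called, with 7 negative and a median of 0.05. *tln-1*, which encodes talin, had a log2 fold change of 0.47 and *dim-1* of -0.61, and 1 gene of the list was lower at an unadjusted p under 0.05. The median turned to -0.35, with 11 negative, without *elt-2* RNAi C. Under library size scaling it was 0.33, with 3 negative, beside 0.42 over all genes. Of 11 genes of excitation and calcium handling 0 were called, 7 were negative and the median was -0.11, with 1 lower and 1 higher at an unadjusted p under 0.05. This median also changed sign with a library left out, being 0.06 without *elt-2* RNAi A and -0.38 without *elt-2* RNAi C. Under library size scaling it was 0.25, beside 0.42 over all genes. Within this list the calcium release channel *unc-68* and the calcium pump *sca-1* lay on opposite sides, at -1.08 (adjusted p = 0.470) and 1.34 (adjusted p = 0.285). *sca-1* had 629, 800 and 1972 counts in *elt-2* RNAi libraries against 486, 227 and 232 counts in control libraries.

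The 3 muscle transcription factors tested were all positive, with a median of 0.93, 0 called and 2 higher at an unadjusted p under 0.05. Without *elt-2* RNAi B the median was 0.53 and 1 of the 3 was negative. *unc-120*, the SRF-like factor of body wall muscle, had 105, 230 and 110 counts under *elt-2* RNAi against 78, 34 and 52 counts in controls (log2 fold change 0.93, SE 0.42, adjusted p = 0.338), and *ceh-22* of the pharynx had 0.21. Of 10 non-muscle myosin genes 5 were negative and 0 were called, with a median of 0.06. Under library size scaling the median was 0.45 with 2 negative, beside 0.42 over all genes. The non-muscle regulatory light chain *mlc-4* was at 0.82 (adjusted p = 0.474), and the unconventional myosin *hum-7* at -1.48 (adjusted p = 0.237), the 1 gene of the list at an unadjusted p under 0.05. *hum-7* was called lower without control A (adjusted p = 0.0995) and with the DESeq2 Wald test (adjusted p = 0.0925).

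**Figure D4:**
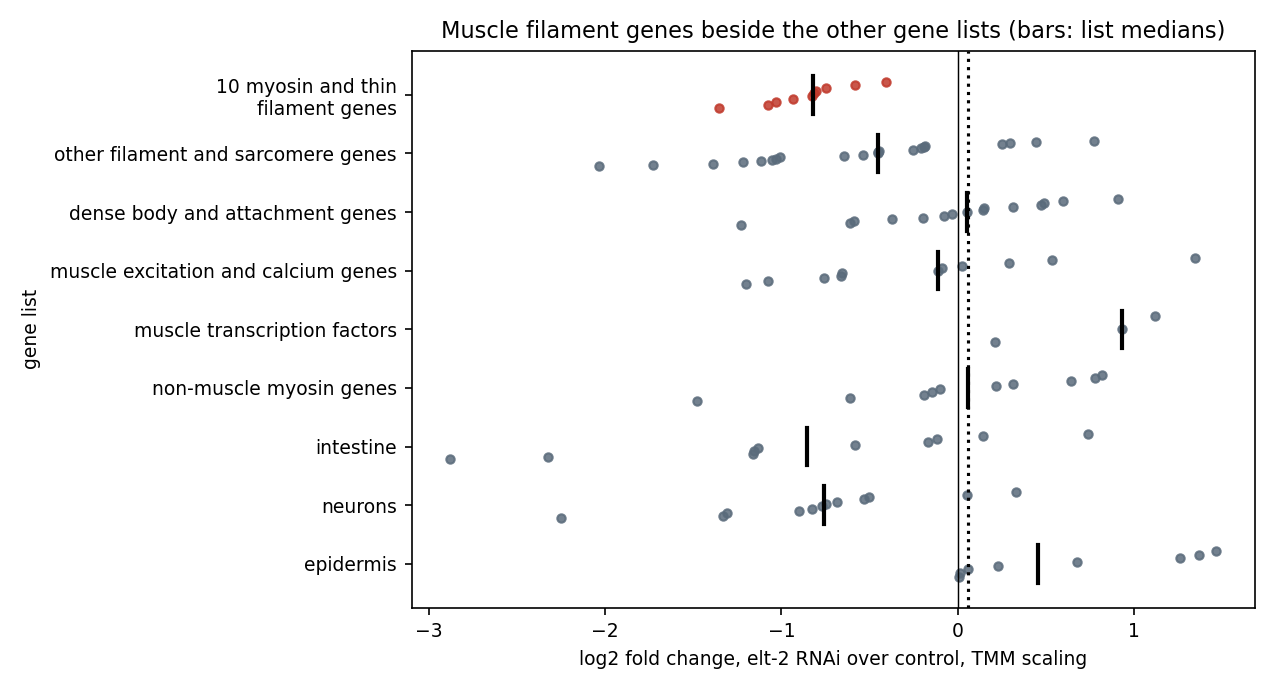
Log2 fold change, *elt-2* RNAi over control, of every tested gene of the members and of the 8 comparison lists (horizontal axis), with a bar at each median and a dotted line at the median of all genes, 0.06. The members' median is -0.82, that of other filament and sarcomere genes -0.45 and that of dense body genes 0.05.

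Markers of other tissues were read from the same libraries. Of 10 intestine genes 8 were negative, with a median of -0.86. The 2 positive genes were *elt-7* at 0.74 (adjusted p = 0.468) and *ges-1* at 0.15 (adjusted p = 0.894), and *erm-1* and *eps-8* were at -0.12 and -0.17. In this list 1 gene was called lower, beside 2.61% of all genes. This was *vha-6*, a proton pump subunit of the intestine, with 28, 17 and 40 counts under *elt-2* RNAi against 67, 108 and 116 counts in controls (log2 fold change -2.32, adjusted p = 0.0378). *vha-6* was not called without control C (adjusted p = 0.133), *elt-2* RNAi A (adjusted p = 0.103) or *elt-2* RNAi B (adjusted p = 0.153), nor with library size scaling (adjusted p = 0.114). *asp-1*, an intestinal protease, had 232, 693 and 2926 counts under *elt-2* RNAi against 5188, 8440 and 5030 counts in controls (log2 fold change -2.88, adjusted p = 0.142). It was called with library size scaling (adjusted p = 0.0406), with the DESeq2 Wald test (adjusted p = 0.00623), with no filter beyond 1 count (adjusted p = 2.7e-04) and without *elt-2* RNAi C (adjusted p = 0.0615). The intestinal median was -0.25 without control B and -1.55 without *elt-2* RNAi C, and *act-5*, the actin of intestinal microvilli, had a log2 fold change of -1.15 (adjusted p = 0.574). Under library size scaling the intestinal median was -0.44, with 6 negative, beside 0.42 over all genes. At an unadjusted p under 0.05, 3 intestine genes were lower and 0 were higher (edgeR with TMM), beside 14.5% of all genes in either direction. Intestine genes summed to 0.0148% to 0.0408% of counts under *elt-2* RNAi, against 0.0464% to 0.0789% in controls. *asp-1* had the highest count of the list in each control library, so these sums depend on it. The sums without *asp-1* were not compared.

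Of 12 neuronal genes 0 were called and 10 were negative, with a median of -0.76. Under library size scaling it was -0.35, beside 0.42 over all genes. *snt-1*, a synaptotagmin, was at -0.90 (adjusted p = 0.401) and *sbt-1* at -0.75 (adjusted p = 0.478). At an unadjusted p under 0.05, 3 neuronal genes were lower, and *egl-21* was called without control A (adjusted p = 0.0406), with the DESeq2 Wald test (adjusted p = 0.00698) and with no filter beyond 1 count (adjusted p = 0.00171). The neuronal sum was 0.0107% to 0.0195% of counts under *elt-2* RNAi and 0.0186% to 0.0233% in controls. All 8 epidermal genes were positive with all libraries, with a median of 0.45, 0 called and 1 higher at an unadjusted p under 0.05. The factors *lin-26*, *elt-3* and *nhr-25* were at 0.013, 0.057 and 0.011, not above the 0.058 of all genes. Between 1 and 2 of the 8 genes were negative when any single library was left out. The median was then 0.28 without control C, 0.22 without *elt-2* RNAi B, 0.20 without *elt-2* RNAi C, 0.77 without *elt-2* RNAi A and 0.78 without control B. Under library size scaling it was 0.84, beside 0.42 over all genes. The cuticle collagens *sqt-3* and *dpy-7* were at 1.37 (adjusted p = 0.471) and 1.26 (adjusted p = 0.363), and the epidermal sum was 0.0669% to 0.301% of counts under *elt-2* RNAi against 0.0284% to 0.104% in controls. *sqt-3* had the highest count of the epidermal list in every library, with 53411 counts in *elt-2* RNAi C, so the epidermal sum depends mainly on it. The part of tissue makeup in the muscle gene values was not tested.

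The genes whose log2 CPM followed the mean of the 10 members most closely over the 6 libraries, among 2532 genes of at least 10 CPM, were *lido-13* (r = 0.996), *grsp-4* (r = 0.992), *col-125* (r = 0.991), *ram-2* (r = 0.989) and *col-160* (r = 0.988). Like the members, *ram-2* was highest in control B, with 3181, 4204 and 7091 CPM under *elt-2* RNAi against 5550 CPM in control A, 19245 CPM in control B and 5947 CPM in control C. With 6 points and 2532 candidates, these values are a description of likeness only.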

How the data were processed

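Poly-A RNA from whole L1 larvae was sequenced by 3SEQ, a 3'-end method, in 3 *elt-2* RNAi and 3 control libraries. The deposited table holds raw read counts of 20351 genes, not normalized by the authors. Bowtie 0.12.7 is named in the submitters' processing notes, and the build, annotation and counting tool are not given in the sources used here. Names and positions are from Ensembl WBcel235, which matched 19872 genes. Counts were tested with edgeR 4.0.16 in R 4.3.3 (TMM, expression filter, quasi-likelihood test), a false discovery rate of 10% following the study's threshold, and standard errors from the fold change and F statistic. The study used a rank product test. Shares and ratios were tested with exact permutation tests in scipy 1.17.1. The 14 alternatives were other scalings and filters, DESeq2 1.42.0, a threshold of 0.05, a replicate block, leaving out each library, and mean log2 values with a pseudocount of 1. The edgeR step was run on simulated data with larger changes than those of the members and the same composition in all libraries. It therefore does not show how the test performs on changes of the members' size. A count of 3 lies at 0.136 to 0.219 CPM, and counting error is small beside the replicate spread here. The members and lists were chosen with earlier results of these data known. Named are all members, the called genes and the 2 highest genes of each list, and the 5 genes most like the members. *unc-22*, *egl-21*, *unc-89*, *elt-7*, *ges-1*, *erm-1*, *eps-8*, *lin-26*, *elt-3* and *nhr-25* were named after their values were seen. Of the listed genes, *tmd-1* had no matching name, and *unc-63* and *hnd-1* did not pass the filter.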

Additional observations from a re-analysis of the deposited data

How the results depend on the processing

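No member was called under any of the alternatives with a test, where adjusted p ranged from 0.193 to 0.993 (edgeR and DESeq2, Benjamini-Hochberg adjustment). Of 130 values for single members, 128 kept their direction, and the exceptions were *mlc-3* at 0.59 and *unc-27* at 0.28 without control B. No value crossed the threshold, and the differences of mean log2 values, which are among the 130, had no test. Over the libraries left out in turn, *mlc-3* ranged from -1.31 to 0.59 and *unc-27* from -2.19 to 0.28. The median log2 fold change of the members was -0.41 with library size, -0.82 with DESeq2 size factors, -0.79 with the DESeq2 Wald test, -0.75 with no filter, -0.83 with a mean count of at least 10, -0.47 as a difference of mean log2 values, and -1.30 to -0.35 without single libraries. The summed share differed by -0.30 to -0.09 percentage points without single libraries. Every ratio changed sign when some library was left out. The differences ranged from -0.19 to 0.19 for pharyngeal over body wall heavy chains, -0.52 to 0.30 for *myo-3*/*unc-54*, -0.36 to 0.23 for *myo-1*/*myo-2*, -0.094 to 0.59 for paramyosin over body wall heavy chains, -0.15 to 0.34 for *mlc-1*/*mlc-2*, -0.93 to 0.10 for regulatory over essential light chains and -1.40 to 0.58 for *unc-27*/*lev-11*. The cause was not tested. The letters did not meet the condition for pairing: same-letter libraries correlated in their deviations from the group means at 0.34 for A, 0.41 for B and 0.02 for C, and the A library of *elt-2* RNAi correlated as well with control C (0.34). With the letter as a replicate block, 0 members were called and their median was -0.88, while *unc-22*, *asp-1* and *egl-21* of the comparison lists were called lower beside *vha-6*. With 3 libraries a group and median coefficients of variation of 62.2% and 51.0% on the TMM scale, these comparisons resolve only differences larger than the replicate spread. How much depth or the number of libraries limited them was not tested.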

Other observations

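In the fit with a letter term, which was added after the values were seen, 2 of the 90 tested genes of the comparison lists were called for the letter. This share, 2.22%, is close to the 2.84% of all genes, and nothing is read from it about these lists. *tni-1*, a troponin I gene on chromosome X like *unc-27*, had 3828, 37263 and 8538 counts in *elt-2* RNAi libraries A, B and C, against 6004, 25606 and 2632 counts in control libraries A, B and C (adjusted p = 0.0499 for the letter). *unc-89*, which encodes a giant protein of the middle of the sarcomere, had 137, 573 and 192 counts under *elt-2* RNAi, against 128, 1868 and 170 counts in controls (adjusted p = 0.0390 for the letter). In both genes the B library of each group was the highest of its group, as it was for *unc-27*. The labels do not say what the letters share.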
